A study of Mus musculus with 33 samples.

Results

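Cytoplasmic ribosomal protein genes were followed in single germinal vesicle (GV) oocytes of mice with intact or mutated *Nlrp5*. The genes were chosen by symbol alone: every annotated gene named Rpl or Rps with a number, together with *Rplp0*, *Rplp1*, *Rplp2* and *Rpsa*, leaving out pseudogene symbols and the Rps6k kinases. This gave 87 of the 35321 genes in the table, of which 52 carried large subunit symbols and 34 carried small subunit symbols. The remaining gene was *Rps19bp1*, which the rule picked up by its symbol but which encodes a nucleolar binding partner of RPS19 and not a ribosomal protein. Of the 86, 77 were the standard ribosomal protein genes (46 large and 31 small, called core here), and 9 were paralogs or retrogenes: *Rpl3l*, *Rpl7l1*, *Rpl10l*, *Rpl22l1*, *Rpl36al*, *Rpl39l*, *Rps27l*, *Rps27rt* and *Rps23rg1*.

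The study profiled 33 GV oocytes by single-cell RNA-seq, all from females aged 3 weeks of the C57BL6/Babr strain: 10 *Nlrp5*+/+, 16 *Nlrp5*+/- and 7 *Nlrp5*-/-. *Nlrp5* encodes NALP5, a core protein of the subcortical maternal complex, and the mutant allele was a CRISPR/Cas9 deletion that introduces a premature stop codon. The mutation was carried in the germline, so the follicle cells had it too, and the null and heterozygous females were from shared litters while most wild-type females were bred in the parent colony. GV oocytes mature from a non-surrounded nucleolus (NSN) to a surrounded nucleolus (SN) chromatin state. The sample labels give no stage. It was inferred by the study from marker gene expression in the same libraries and was read here from the stage bar of its staging heatmap, so each comparison by stage rests on that reading. None of the 87 genes is among those markers. The NSN oocytes numbered 4 *Nlrp5*+/+, 9 *Nlrp5*+/- and 4 *Nlrp5*-/-, and the SN oocytes numbered 6, 7 and 2, with 1 *Nlrp5*-/- oocyte (oocyte 15) left unstaged. The study's own description gives smaller heterozygous groups at both stages, and this conflict was not resolved. Comparisons by stage that hold heterozygous oocytes therefore rest on the heatmap reading alone.

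Each ribosome carries a single copy of nearly every ribosomal protein, so cells tend to express these genes at coordinated levels. Most vertebrate ribosomal protein mRNAs begin with a C followed by a run of pyrimidines (the 5' terminal oligopyrimidine, or TOP, motif), through which mTORC1 and LARP1 control their translation. The growing oocyte makes and stores ribosomes and mRNAs for the embryo, and ribosomal RNA transcription ceases as chromatin condenses around the nucleolus in the SN state.

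Windows around the annotated start were available from RefSeq (GRCm38.p6) for 67 of the 87 genes. In the lines that follow, 30 bases are shown 5' to 3', of which the eleventh is the annotated start, and capitals mark a C followed by at least 4 further bases that are each C or T, beginning within 5 bases of the start on the gene's strand. The first 4 genes are the core members with the longest such tract, and the others are paralogs beside the core gene they resemble, shown because their levels are compared in the results. The tract was found in 45% of 40 core large subunit windows and 40.7% of 27 core small subunit windows, against 18.3% of all 32851 windows. A stricter tract, a C and at least 7 further pyrimidines, was found in 27.8% of the 79 member windows against 4.37% of all windows. It was in 20 of 57 core genes and 2 of 9 paralogs or retrogenes. The annotated start may lie some bases away from the start used in oocytes, and a window without capitals says only that no such run begins within 5 bases of it, since runs that begin farther away are left in lower case.
Rpl27a (chr7:109519185-109519214, + strand): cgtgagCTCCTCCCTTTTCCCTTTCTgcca
Rpl15 (chr14:18270967-18270996, - strand): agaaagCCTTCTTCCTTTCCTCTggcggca
Rpl35 (chr2:39005112-39005141, - strand): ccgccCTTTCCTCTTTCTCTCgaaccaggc
Rpl13a (chr7:45128726-45128755, - strand): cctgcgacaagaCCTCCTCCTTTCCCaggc
Rps27 (chr3:90213629-90213658, - strand): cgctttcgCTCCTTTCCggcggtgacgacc
Rps27l (chr9:66946076-66946105, + strand): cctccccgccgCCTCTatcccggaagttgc
Rpl39 (chrX:37085203-37085232, - strand): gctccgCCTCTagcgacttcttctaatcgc
Rpl39l (chr16:10170218-10170247, + strand): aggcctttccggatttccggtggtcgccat
Rpl10 (chrX:74270806-74270835, + strand): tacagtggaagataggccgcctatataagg
Rpl10l (chr12:66284382-66284411, - strand): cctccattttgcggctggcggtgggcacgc

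The libraries held 4223595 to 15573360 counts on genes. The normalized count used from here on is the count divided by the oocyte's size factor (median of ratios over all 33 oocytes). *Nlrp5* itself, measured over the whole gene, stood at 1362 to 2556 in the 7 *Nlrp5*-/- oocytes, below every *Nlrp5*+/- oocyte (5062 to 13472) and every *Nlrp5*+/+ oocyte (10114 to 29131), as the labels state. The labels name no mouse, so the oocytes of a genotype and stage were treated as 1 sample: spreads are given over oocytes and no p-value was computed. Each of the 10 first indices named in the column headers was used in a single genotype (3, 4 and 3 of them in *Nlrp5*+/+, *Nlrp5*+/- and *Nlrp5*-/-), so genotypes could not be compared within a first index. No pair of indices was shared between libraries. Oocyte 14, an NSN *Nlrp5*-/- oocyte, stood apart for ribosomal protein genes, and the medians and counts of the comparisons that hold NSN *Nlrp5*-/- oocytes are therefore given with and without it. This choice was made after its values were seen.

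All 77 core genes had counts in all 33 oocytes. Together the large and small subunit genes took 0.607% to 2.33% of counts in the 32 staged oocytes, with a median of 1.12%. Counting error on such a share was small: the exact Clopper-Pearson 95% interval of the lowest, oocyte 29, ran from 0.6001% to 0.614%, and it covers counting error only. In NSN oocytes the share was 1.01% to 1.26% (median 1.04%) in the 4 *Nlrp5*+/+, 0.768% to 2.06% (median 1.13%) in the 9 *Nlrp5*+/- and 0.607%, 0.682%, 0.976% and 2.33% in the 4 *Nlrp5*-/-. In SN oocytes it was 0.714% to 1.69% (median 0.978%) in the 6 *Nlrp5*+/+, 0.629% to 1.38% (median 1.16%) in the 7 *Nlrp5*+/- and 1.19% and 1.54% in the 2 *Nlrp5*-/-. The groups overlapped, except that 3 of the 4 NSN *Nlrp5*-/- oocytes lay below every NSN *Nlrp5*+/+ oocyte and oocyte 14 lay above all other staged oocytes.

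**Figure D1:**
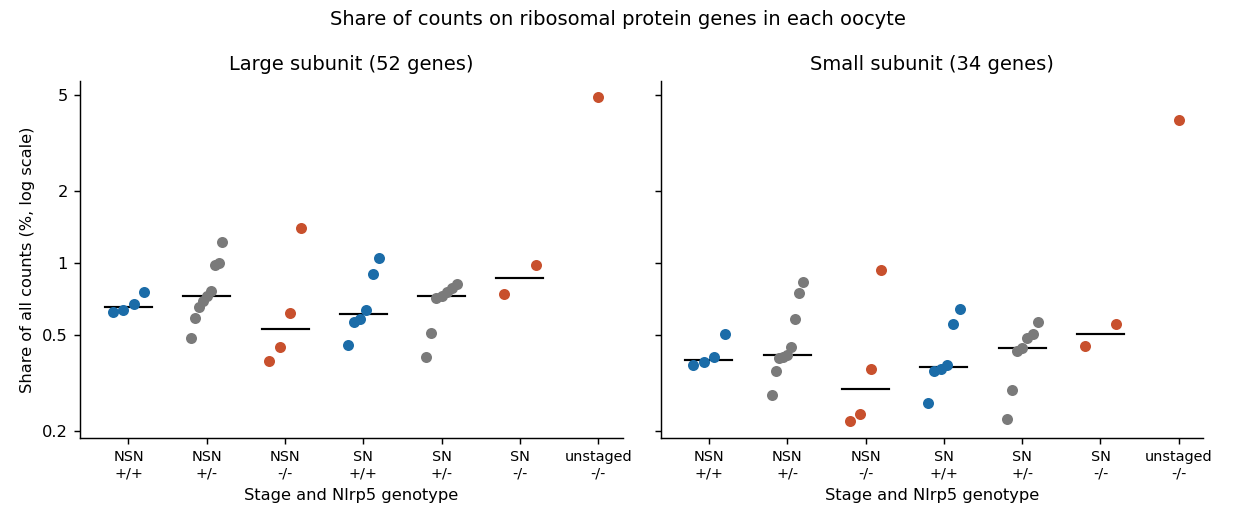
Share of all counts (percent, log scale) on large subunit genes (left) and small subunit genes (right) in each of the 33 oocytes, by stage and *Nlrp5* genotype. Points are oocytes and bars are group medians. The staged oocytes span 0.389% to 1.39% for the large subunit and 0.218% to 0.931% for the small subunit, and the unstaged oocyte sits above them at 4.90% and 3.95%.

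Large subunit genes received more counts than small subunit genes in each of the 33 oocytes. The ratio of large to small subunit counts was 1.31 to 1.89 in staged oocytes (1.65 ± 0.120, SD, n = 32). Group means lay close together, from 1.62 ± 0.0845 (SD, n = 4) in NSN *Nlrp5*+/+ to 1.72 ± 0.166 (SD, n = 4) in NSN *Nlrp5*-/-, a distance smaller than the spread within the latter group. The 5 staged oocytes with a ratio below 1.5 (oocytes 14, 46, 47, 56 and 61) had ribosomal protein shares of 1.26% to 2.33%, whereas the 27 others had shares of 0.607% to 1.69%. The unstaged oocyte had both the highest share and the lowest ratio, 1.24. The ratio and the share are made from the same counts, and no test was made of their relation.

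**Figure D2:**
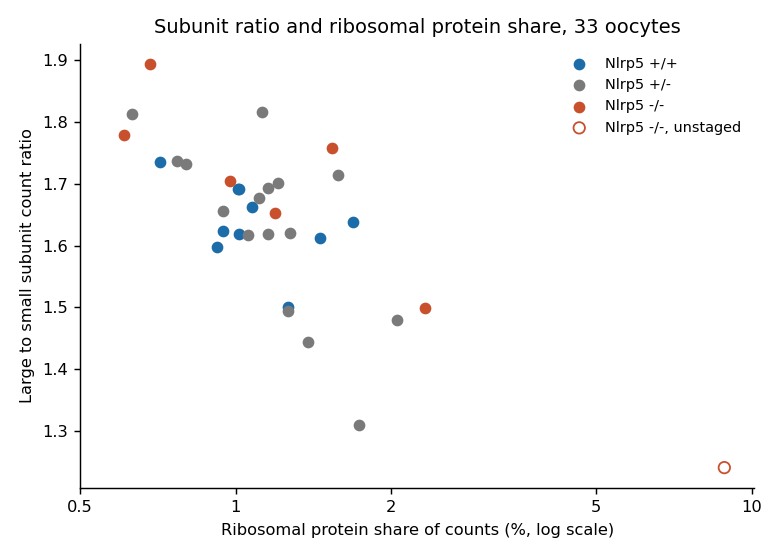
Ratio of large to small subunit counts against the ribosomal protein share of all counts (percent, log scale), 1 point per oocyte, colored by *Nlrp5* genotype. Oocytes with shares above 1.7% have ratios of 1.31 to below 1.5, and the open circle is the unstaged oocyte at 8.85% and 1.24.

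Between genes the levels differed widely. Per kilobase of merged exons, the core genes ranged over the 10 *Nlrp5*+/+ oocytes from 21.1 normalized counts (*Rps28*) to 2376 (*Rplp1*), with a median of 253 for 46 large and 307 for 31 small subunit genes. The 5 highest were *Rplp1*, an acidic protein of the ribosomal stalk, at 2376 ± 1105 (SD, n = 10), *Rps4x* at 1793 ± 390, *Rpl5*, which binds 5S rRNA, at 1320 ± 310, *Rpl41* at 1252 ± 490 and *Rpl10*, a late-joining large subunit protein, at 1215 ± 422. The SDs of these 5 overlap. All 5 were measured in the same oocytes but were not compared within oocytes, so no order is read from the means. The 5 lowest were *Rpl3* at 72.4 ± 23.3, *Rpl37* at 58.3 ± 22.9, *Rpl37a* at 55.4 ± 23.5, *Rpl9* at 25.6 ± 15.8 and *Rps28* at 21.1 ± 6.34. These lengths include annotated transcripts that retain introns, and they lower the value of some genes. They come from another annotation (GENCODE vM39) than the counts. For some genes, *Rpl9*, *Rpl37* and *Rpl37a* among them, they exceed the span of the gene in the table of counts. Such low values thus rest partly on this mismatch. With the length of the canonical transcript, *Rps28* stood at 332 and *Rpl9* at 203, ranks 62 and 70 of 77, while *Rpl37* and *Rpl37a* were the 2 lowest at 74.5 and 68.7. The canonical transcripts of those 2 genes are long, at 6111 and 3762 bases beside 382 for *Rps28* and 755 for *Rpl9*. Both of these long lengths also exceed the span of the gene in the table of counts. The low values of *Rpl37* and *Rpl37a* therefore rest on the length taken. The highest was then *Rps13*, with *Rpl41*, *Rps4x* and *Rpl10* ranked 2, 3 and 4, and *Rplp1* ranked 6.

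Several paralogs were abundant in the oocytes. *Rpl39l*, known from the testis, had normalized counts of 397 to 1983 (median 834) in the 32 staged oocytes. Per kilobase of merged exons its level was 1.79 times that of *Rpl39* (median over oocytes) and higher in 29 of 32 oocytes. *Rps27l*, a p53-responsive paralog of *Rps27*, had 310 to 1915 normalized counts (median 779) and a per-kilobase level above *Rps27* in 27 of 32 oocytes, at a median of 1.34 times. For both genes the ratio of mean per-kilobase levels stayed above 1 with the longest transcript (1.53 and 1.59) and with the canonical transcript (1.68 and 1.98). In normalized counts, not divided by length, *Rps27l* was above *Rps27* in 31 of 32 oocytes but *Rpl39l* was above *Rpl39* in 4 of 32, so the higher level of *Rpl39l* rests on the longer annotated *Rpl39* (2825 against 1159 bases of merged exons). *Rpl36al* exceeded *Rpl36a* in 31 of 32 oocytes per kilobase of merged exons (median 1.88 times), and *Rpl22l1* exceeded *Rpl22* in 29 of 32 (median 1.58 times). These last ratios depended on the length taken, since with canonical transcripts the ratios of means were 0.669 and 0.941. For *Rpl36al* both lengths, 3005 and 2188 bases, exceed the span of the gene in the table of counts, so neither of its ratios is reliable.

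The other paralogs were far below their core partner. *Rpl10l*, an intronless retrogene that serves in male meiosis, had a per-kilobase level 0.0319 times that of *Rpl10*, and *Rpl7l1* a level 0.151 times that of *Rpl7* (medians over 32 oocytes). *Rps27rt* stood at 0.119 times *Rps27*. *Rps23rg1*, a retrogene of *Rps23*, had a count in 21 of 33 oocytes. Both copies are nearly identical to their parent gene, and how reads that map to more than 1 place were counted is not given in the sources used here, so their values are uncertain. *Rpl3l*, the paralog of striated muscle, had no count in any of the 33 oocytes. Of the 87 genes, 85 passed the floor of a mean normalized count of 10 in each comparison, *Rpl3l* and *Rps23rg1* being the exceptions.

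The comparison of SN with NSN oocytes asked which ribosomal protein mRNAs differ as the chromatin matures. Differences are log2 ratios of mean normalized counts with 1 added to each mean, and 0.5 is the threshold the study used. In *Nlrp5*+/+ oocytes the median difference was 0.14 for the large and 0.15 for the small subunit, beside 0.03 over all genes tested. None of the 77 core genes was higher in SN by 0.5, and 3 (*Rpl9*, *Rps23* and *Rpl3*) were lower. Among all 85 genes, 2 were higher and 6 lower, or 2.35% and 7.06%, where 13.9% and 20% of all genes passed the threshold in those directions. The 8 genes past the threshold became 14 without oocyte 87. The 2 that were higher were *Rps27l* (0.52) and *Rps27rt* (0.77), and *Rps9*, with 0.36, had the largest positive difference of the core genes. In the same comparison 2 of 3 theca and interstitial markers were lower and none higher (median -1.43). Of granulosa markers 2 were higher and 1 lower of 6 (median 0.32), and of stroma, vessel and blood markers 1 of 4 was higher and none lower (median 0.30). The part of these markers was not tested.

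*Rpl9*, a large subunit protein gene on chromosome 5 (65388364 to 65391444, minus strand, GRCm38), had the largest core gene difference. Its normalized counts were 222, 239, 255 and 267 in the 4 NSN *Nlrp5*+/+ oocytes, and in the 6 SN oocytes they ran from 34.3 to 212 with a median of 78.04. The groups did not overlap, and the means were 246 ± 19.5 (SD, n = 4) and 91.3 ± 65.4 (SD, n = 6), a difference of -1.42. In *Nlrp5*+/- oocytes the difference was -1.21, with overlap between 224 to 659 in NSN and 72.7 to 262 in SN. In *Nlrp5*-/- oocytes it was -1.43, from 229, 292, 378 and 1559 in NSN to 228 in both SN oocytes. Without oocyte 14 the *Nlrp5*-/- difference was -0.39, so its size there rested on that oocyte. Within the 6 first indices that held both stages *Rpl9* was lower in SN in all 6, with differences of -0.04 to -1.70.

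*Rpl3*, a protein near the peptidyl transferase center, had 396, 482, 564 and 603 normalized counts in NSN *Nlrp5*+/+ oocytes and 232 to 386 in the 6 SN oocytes. These groups did not overlap either, and the difference was -0.74. It was -0.84 in *Nlrp5*+/- and -0.70 in *Nlrp5*-/- oocytes, the last turning to 0.12 without oocyte 14. *Rps23*, a protein of the decoding center, differed by -0.79 in *Nlrp5*+/+ oocytes, but 284 to 722 in NSN overlapped with 132 to 558 in SN. *Rps3*, at the mRNA entry channel, differed by -0.39, -0.21 and -0.80 in the 3 genotypes, and the last value became 0.15 without oocyte 14.

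Among the paralogs, *Rpl10l* showed the largest stage difference of all 87 genes in *Nlrp5*+/+ oocytes. Its normalized counts were 69.9, 94.3, 126 and 170 in NSN and 19.8 to 48.2 in SN, with no overlap and a difference of -1.76. *Rpl7l1*, a nucleolar protein related to RPL7, had 190 to 243 in NSN and 53.1 to 160 in SN, again without overlap, and a difference of -0.94. In *Nlrp5*+/- oocytes the 2 genes differed by -1.70 and -1.02, with overlapping groups. In *Nlrp5*-/- oocytes they differed by -0.72 and -0.37, and by -0.27 and -0.17 without oocyte 14. *Rpl9*, *Rpl3* and *Rpl10l* were the 3 genes lower in SN by at least 0.5 in all 3 genotypes, and no gene was higher by 0.5 in all 3. Without oocyte 14 the *Nlrp5*-/- differences of these genes were -0.39, 0.12 and -0.27, so none of them then passed 0.5 in *Nlrp5*-/- oocytes. *Rps19bp1* differed by -0.66, -0.69 and -0.10. In *Nlrp5*+/+ oocytes 4 of 85 genes (4.71%) had every SN oocyte below every NSN oocyte, where 6.07% of all genes did, and none had every SN oocyte above, where 3.73% of all genes did. The members' share was thus not above that of all genes.

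**Figure D3:**
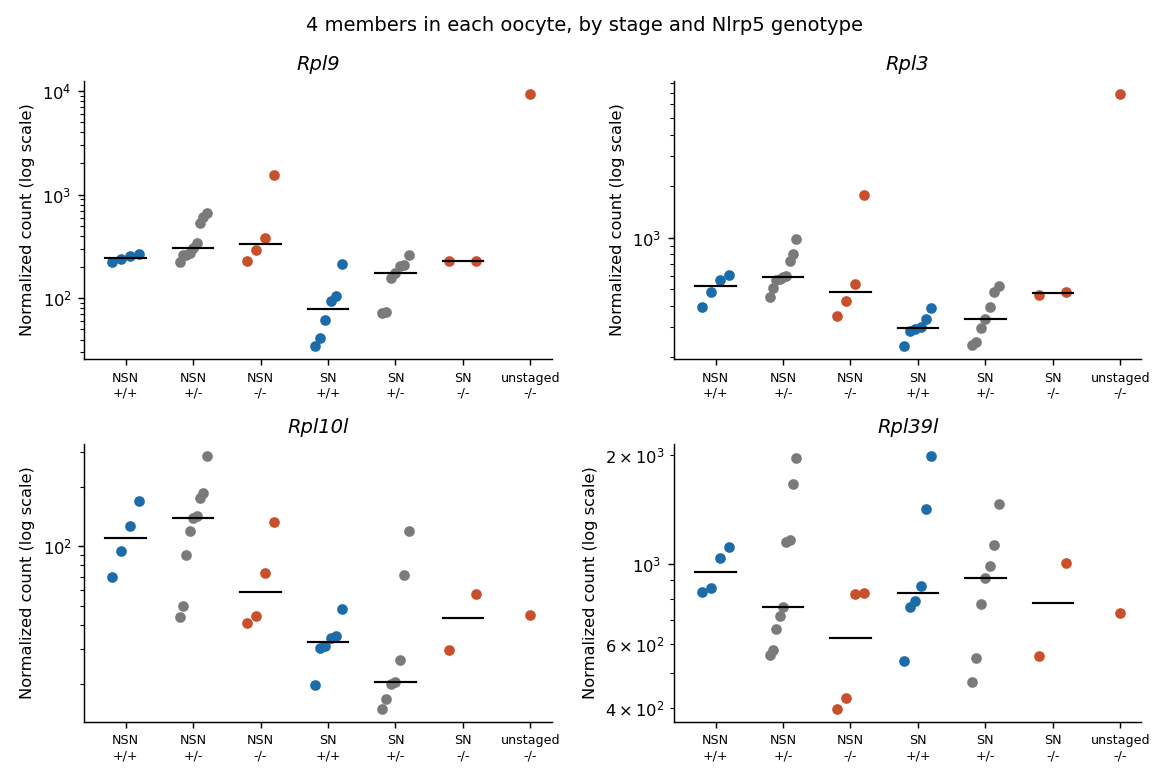
Normalized counts (log scale) of *Rpl9*, *Rpl3*, *Rpl10l* and *Rpl39l* in each oocyte, by stage and *Nlrp5* genotype, with group medians as bars. *Rpl9*, *Rpl3* and *Rpl10l* are lower in SN than in NSN *Nlrp5*+/+ oocytes without overlap, *Rpl39l* overlaps between stages, and the unstaged oocyte has 9401 counts of *Rpl9* but 44.5 of *Rpl10l*.

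In *Nlrp5*+/- oocytes the median SN minus NSN difference was -0.12 for the large and -0.18 for the small subunit. None of 85 genes was higher by 0.5 and 11 (12.9%) were lower, beside 9.33% and 19.4% of all genes. Without oocyte 56 the 11 were 7. Of theca and interstitial markers 1 was higher and 4 lower of 6 (median -1.16), and of granulosa markers 3 were higher and 2 lower of 8 (median 0.04). Of stroma, vessel and blood markers 3 of 5 were higher and none lower (median 0.78). The part of these markers was not tested. Where the mean normalized count was 100 or more, which leaves out *Rpl10l*, the most negative differences were of *Rpl9* (-1.21), *Rpl7l1* (-1.02) and *Rpl3* (-0.84), and the largest positive differences were of *Rps29* (0.37), *Rps28* (0.31) and *Rpl38* (0.25).

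With all staged oocytes, the largest medians between stages were those of *Nlrp5*-/- oocytes. The medians were 0.33 and 0.38 for the large and small subunit, and 28 of 85 genes (32.9%) were higher in SN by 0.5 and 6 (7.06%) lower, beside 14.3% and 23.8% of all genes. The 34 genes past the threshold became 22 without oocyte 7 and 20 without oocyte 13. Leaving out each oocyte in turn gave medians of 0.08 to 0.94 for the large and 0.06 to 0.97 for the small subunit. The same in *Nlrp5*+/+ oocytes gave -0.05 to 0.21 and -0.005 to 0.26, so the ranges overlapped. The largest positive differences were of *Rps12* (0.99), *Rpl35* (0.99) and *Rpl41* (0.87). *Rps12* had 137, 210, 505 and 862 normalized counts in NSN and 858 and 845 in SN, so that oocyte 14 lay with the SN oocytes. Without oocyte 14 the medians were 0.94 and 0.97, 70 of 85 genes (82.4%) were higher in SN and none was lower, beside 18.9% and 22.8% of all genes. Both SN oocytes were then above all 3 NSN oocytes for 64 genes (75.3%) and below for 1, beside 15.9% and 16.1% of all genes. Within the 1 first index that held both stages of this genotype (oocytes 29, 30 and 31) the medians were 0.68 and 0.62. Over all 6 first indices with both stages the medians ranged from -0.37 to 0.68 for the large and from -0.32 to 0.88 for the small subunit, and 4 of the 6 were positive. Of the granulosa markers none was higher in SN *Nlrp5*-/- oocytes and 7 of 12 were lower (median -0.62), and of the theca and interstitial markers 5 of 5 were lower (median -1.42). Without oocyte 14 these were 1 higher and 3 lower of 11 (median 0.28) and 5 lower of 5 (median -0.61), and the part of these markers was not tested. Only 2 SN *Nlrp5*-/- oocytes were sequenced, and whether the stage difference itself differs between genotypes was not tested.

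The comparison of *Nlrp5*-/- with *Nlrp5*+/+ oocytes at the NSN stage depended on oocyte 14. With all 4 *Nlrp5*-/- oocytes the medians were 0.02 for the large and 0.07 for the small subunit. Of 85 genes 9 (10.6%) were higher and 4 (4.71%) lower, beside 15.6% and 13.3% of all genes, so the members stood at or below the background. Leaving out each of the 8 oocytes in turn gave medians of -0.61 to 0.20 for the large and -0.57 to 0.28 for the small subunit. Both lowest values were those without oocyte 14. Without oocyte 14 the medians were -0.61 and -0.57, no gene was higher and 53 (62.4%) were lower, beside 14.3% and 18.3% of all genes. For 26 genes (30.6%) all 3 *Nlrp5*-/- oocytes then lay below all 4 *Nlrp5*+/+ oocytes, where 6.73% of all genes did, and for none above, where 6.7% of all genes did. Oocyte 14 carried 3.33 times the level of oocytes 13, 29 and 30 in the median core gene, from 1.38 to 5.84 times. In the same oocyte the 16 granulosa markers summed to 652 CPM (their counts scaled to the library total), above 288, 310 and 438 in the other 3 and 200 to 318 in the 4 *Nlrp5*+/+, and all 16 were detected, *Fshr*, *Foxl2* and *Amh* included. Theca and interstitial markers stood at 257 CPM in oocyte 14 against 24.7 to 49.96 in the other 3 and 12.9 to 22.8 in the 4 *Nlrp5*+/+. Stroma, vessel and blood markers stood at 116 CPM in oocyte 14, 86.2 to 100.3 in the other 3 and 45.9 to 75.1 in the *Nlrp5*+/+. The 3 *Nlrp5*-/- oocytes were thus above all *Nlrp5*+/+ oocytes for both lists without oocyte 14 too. The part of these transcripts in the difference was not tested.

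*Rpl9* had the largest positive difference between *Nlrp5*-/- and *Nlrp5*+/+ NSN oocytes, 1.32, followed by *Rps28* at 0.97 and *Rpl13* at 0.70. *Rps28* had 77.3, 127, 137 and 544 normalized counts in *Nlrp5*-/- and 64.5, 104, 120 and 162 in *Nlrp5*+/+ oocytes. The groups overlapped but for oocyte 14, without which the differences of the 3 genes were 0.28, 0.02 and -0.25. The largest negative differences were of *Rpl10l* (-0.66), whose mean was below 100, and of *Rpl39l* (-0.63), *Rps7* (-0.63) and *Rpl27* (-0.52). *Rpl39l* had 397, 425, 825 and 832 in *Nlrp5*-/- against 836, 859, 1041 and 1111 in *Nlrp5*+/+ oocytes, and it was the only gene of the 85 with every *Nlrp5*-/- oocyte lower, oocyte 14 included. This was 1.18% of the 85 genes, beside 3.14% of all genes, and the gap was narrow, with 832 and 836 in the nearest oocytes of the groups. *Rps7*, mutated in some patients with Diamond-Blackfan anemia, had 572, 586, 943 and 2076 against 1417 to 1783.

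Against the *Nlrp5*+/- littermates the NSN *Nlrp5*-/- oocytes had medians of -0.20 in both subunits. Of 85 genes 2 (2.35%) were higher and 9 (10.6%) lower, beside 12.2% and 14.9% of all genes. The 11 past the threshold became 7 without oocyte 61. Without oocyte 14 the medians were -0.76 and -0.84, with none higher and 76 (89.4%) lower, beside 12.8% and 21.3% of all genes. The largest negative differences with all oocytes were of *Rpl10l* (-0.91), *Rps27l* (-0.84) and *Rps7* (-0.75), and the largest positive ones of *Rpl9* (0.68), *Rps3* (0.63) and *Rps28* (0.43). The first 2 positive values turned to -0.36 and -0.33 without oocyte 14. In the same comparison 28 of 78 mitochondrial ribosomal protein genes were lower and none higher (median -0.42), or 45 and none (median -0.55) without oocyte 14. Of the granulosa markers 6 of 12 were higher and 1 lower, of the theca and interstitial markers 3 of 6 were higher and 3 lower, and of the stroma, vessel and blood markers 3 of 5 were higher and none lower. Without oocyte 14 the granulosa markers were 3 higher and 2 lower of 9 (median -0.07), the theca and interstitial markers 1 higher and 4 lower of 6 (median -0.90), and none of 4 stroma, vessel and blood markers passed 0.5. The part of these markers was not tested.

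At the SN stage the medians were positive. In NSN they were 0.02 and 0.07 with all oocytes and negative, at -0.61 and -0.57, only without oocyte 14. The 2 SN *Nlrp5*-/- oocytes had medians of 0.26 and 0.25 above *Nlrp5*+/+ oocytes, with 14 of 85 genes (16.5%) higher and 2 (2.35%) lower, beside 15.9% and 18.7% of all genes. Leaving out each oocyte in turn gave medians of 0.15 to 0.44 for the large and 0.02 to 0.44 for the small subunit. The 16 genes past the threshold in either direction became 36 without oocyte 31, which leaves 1 *Nlrp5*-/- oocyte, and 29 without oocyte 80, so the count rested on single oocytes. *Rpl9* differed by 1.31, with 228 in both *Nlrp5*-/- oocytes and 34.3 to 212 in the 6 *Nlrp5*+/+. *Rps28* differed by 1.13, with 296 and 304 against 95.02 to 190, and *Rpl38* by 0.79. *Rpl17* was also separated, with 4869 and 6054 against 2733 to 4666 and a difference of 0.72. Both *Nlrp5*-/- oocytes were above all 6 *Nlrp5*+/+ oocytes for 4 of 85 genes (4.71%), beside 7.24% of all genes. The largest negative differences were of *Rps20* (-0.61), *Rps6* (-0.54), the substrate of S6 kinase, and *Rpl15* (-0.47). Against *Nlrp5*+/- SN oocytes the medians were 0.29 and 0.24, with 15 genes (17.6%) higher and none lower, beside 14.6% and 17.6% of all genes. Leaving out oocyte 7, 37, 47 or 31 gave 6, 8, 24 or 36 genes past the threshold in place of the 15. Here *Rpl17* (0.85), *Rpl23a* (0.71) and *Rpl38* (0.70) were the most positive, and *Rps20* (-0.40), *Rpl36a* (-0.40) and *Rpl15* (-0.37) the most negative. Oocyte 7 had 436 and oocyte 31 had 379 CPM of granulosa markers, beside 289 to 370 in SN *Nlrp5*+/+ oocytes. Theca and interstitial markers were at 28.0 and 20.1 CPM beside 4.88 to 10.2, without overlap, and all 4 of those that passed the floor were higher by 0.5 (median 1.38). Beside SN *Nlrp5*+/- oocytes, at 10.5 to 62.1 CPM, 3 of 6 theca and interstitial markers were lower and none higher (median -0.51), and 3 of 8 granulosa markers were higher and 1 lower (median 0.12). The part of either in the differences was not tested.

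**Figure D4:**
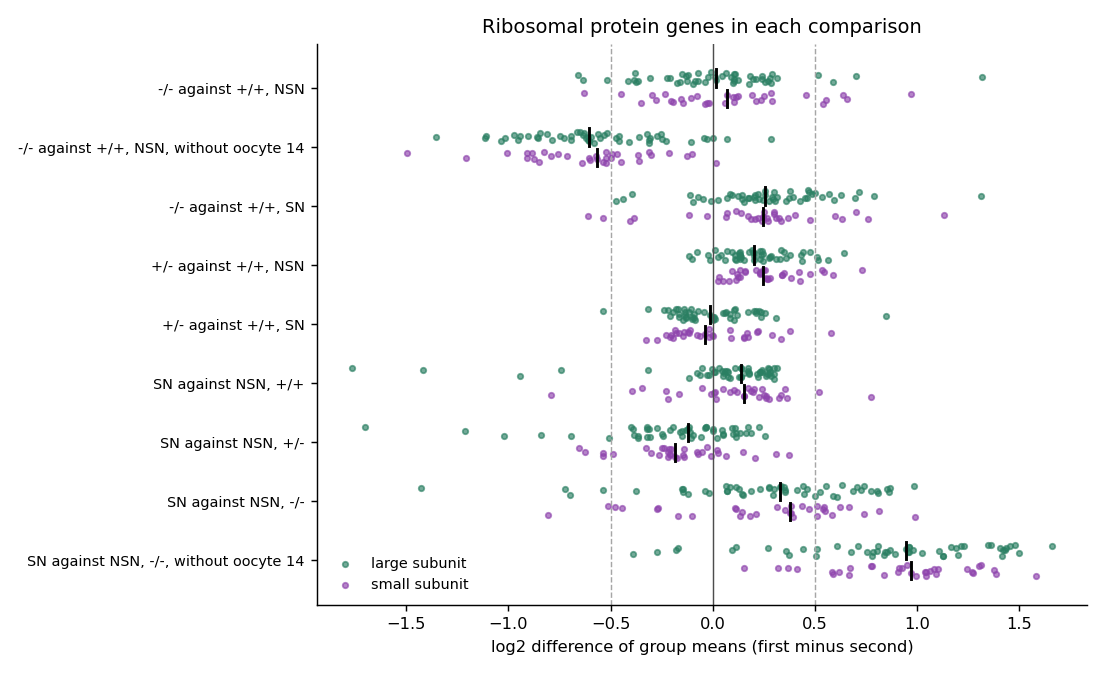
log2 differences of group means for the 51 large and 33 small subunit genes that passed the floor, 1 point per gene, with black bars at the medians and dashed lines at -0.5 and 0.5. Both subunits move together in each comparison, and removing oocyte 14 shifts the NSN *Nlrp5*-/- medians from 0.02 and 0.07 to -0.61 and -0.57.

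*Nlrp5*+/- and *Nlrp5*+/+ oocytes differed little. At the NSN stage the medians were 0.20 and 0.25, beside 0.04 over all genes, and 80 of 85 genes (94.1%) had a positive difference, beside 54.1% of all genes, but only 8 (9.41%) were higher by 0.5 and none was lower, beside 10.8% and 8.61% of all genes. In the same comparison 5 of 6 theca and interstitial markers were higher and 1 lower (median 2.27), and 4 of 7 granulosa markers were higher and none lower (median 0.52). Their part in the difference was not tested. Without oocyte 61, 56, 45, 87 or 79 the 8 became 3, 2, 14, 16 or 3. The most positive among genes with a mean of at least 100 were *Rpl9* (0.64), *Rpsa* (0.59), which also serves as a laminin receptor, and *Rpl14* (0.57), and the most negative *Rpl36al* (-0.12), *Rpl7l1* (-0.10) and *Rpl22* (-0.08). At the SN stage the medians were -0.01 and -0.04, with 2 genes (2.35%) higher and 1 (1.18%) lower, beside 5.33% and 5.29% of all genes. The most positive were *Rpl9* (0.85), *Rps28* (0.58) and *Rps23* (0.38), and the most negative *Rpl10* (-0.54), *Rps6* (-0.33) and *Rpl10a* (-0.32). The comparisons with *Nlrp5*+/+ at a stage share its oocytes, so *Rpl9* and *Rps28* in *Nlrp5*-/- and *Nlrp5*+/- are not independent. In the 9 comparisons with all staged oocytes the medians of the large and small subunits differed by at most 0.06. They lay farther apart for *Nlrp5*-/- against *Nlrp5*+/- in NSN without oocyte 14, at -0.76 and -0.84. Between stages within a first index of *Nlrp5*+/- they were 0.63 and 0.88.

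Members known as reference genes or for roles of their own were read in the same way. *Rplp0*, the stalk base protein, differed between *Nlrp5*-/- and *Nlrp5*+/+ by 0.28 in NSN (-0.31 without oocyte 14) and 0.39 in SN. *Rpl5* and *Rpl11*, which with 5S rRNA bind MDM2, differed by 0.21 and -0.09 in NSN (-0.04 and -0.86 without oocyte 14) and by 0.03 and 0.21 in SN. *Rps19*, also linked to Diamond-Blackfan anemia, had 283, 430, 542 and 2411 normalized counts in NSN *Nlrp5*-/- and 517 to 740 in *Nlrp5*+/+ oocytes. The group difference of 0.64 was -0.49 without oocyte 14. In SN it was 0.60, with 834 and 1193 against 324 to 1076, and the groups overlapped. *Rpsa* differed by 0.56 in NSN, -0.13 without oocyte 14, and 0.27 in SN.

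Ribosomal protein genes that lie outside the symbol rule are given for comparison. *Fau*, whose product is a ubiquitin-like fusion of RPS30, and *Rack1*, a scaffold on the small subunit, differed between *Nlrp5*-/- and *Nlrp5*+/+ by -0.03 and 0.08 in NSN (-0.58 and -0.59 without oocyte 14) and by 0.36 and 0.01 in SN. Between SN and NSN *Nlrp5*+/+ oocytes they differed by 0.27 and 0.13.

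Genes for making ribosomes were counted in the same way, from lists of known factors. Those named have the largest difference among the genes of their list whose normalized counts averaged 100 or more, and some genes below that mean differed more. Their counts are read beside the shares of all genes given for each comparison: 20% lower and 13.9% higher in SN for *Nlrp5*+/+, 19.4% and 9.33% for *Nlrp5*+/-, and 23.8% and 14.3% for *Nlrp5*-/- oocytes. Of 15 RNA polymerase I subunits and factors, 5 were lower in SN by 0.5 and none was higher in *Nlrp5*+/+ oocytes (median -0.25), with *Ubtf*, the upstream binding factor of rRNA genes, at -2.87. In *Nlrp5*+/- oocytes 4 were lower and none higher (median -0.12, *Ubtf* -2.09), and in *Nlrp5*-/- oocytes 4 were lower and 1 higher (median -0.34, *Twistnb* -1.23), or 5 and 2 (median -0.10) without oocyte 14. Of 36 nucleolar assembly factors 9 were lower and 3 higher in *Nlrp5*+/+ (median 0.11), with *Tsr1* at -0.93 and *Nhp2* at 0.66. Of 14 mRNAs of translation factors and other TOP genes 1 was lower and none higher (median 0.05), *Pabpc1*, the cytoplasmic poly(A) binding protein, at -1.72. Of 14 regulators of TOP mRNAs 7 were lower and none higher (median -0.34), with *Rptor*, an mTORC1 subunit, at -1.30. Of 78 mitochondrial ribosomal protein genes 8 were higher and 7 lower (median 0.17), from *Mrps26* at -1.02 to *Mrpl53* at 0.79. In *Nlrp5*+/- oocytes 1 was higher and 10 lower (median -0.19), and in *Nlrp5*-/- oocytes 13 were higher and 1 lower (median 0.28), or 38 and 1 (median 0.46) without oocyte 14.

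Between *Nlrp5*-/- and *Nlrp5*+/+ oocytes, where 15.6% of all genes were higher and 13.3% lower in NSN and 15.9% and 18.7% in SN, the mitochondrial ribosomal protein genes had medians of -0.15 in NSN (4 higher and 8 lower of 78) and -0.05 in SN (8 higher and 11 lower). RNA polymerase I genes had medians of -0.23 (none higher and 2 lower of 15) and -0.06 (1 and 1 of 14). Nucleolar assembly factors had -0.07 at both stages (3 higher and 3 lower of 36, then 4 and 6 of 34), with *Bop1*, a PeBoW complex protein of large subunit maturation, at 0.59 and 1.33. The translation factor and TOP list had medians of 0.19 (3 higher and none lower of 14) and 0.22 (4 and 2), and the TOP regulators had 0.04 (3 and none of 14) and 0.16 (2 and 2). Without oocyte 14, where 14.3% of all genes were higher and 18.3% lower, the NSN median of the mitochondrial genes was -0.34 with none higher and 18 lower, and that of the RNA polymerase I genes was -0.25 with none and 4. The assembly factors then had -0.03 (1 higher and 4 lower), the translation factor and TOP list -0.05 (1 and 2) and the TOP regulators -0.06 (2 and 2).

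The unstaged *Nlrp5*-/- oocyte, oocyte 15, gave the widest separation among the 87 genes. Ribosomal protein genes took 8.85% of its counts (exact 95% interval 8.83% to 8.87%), against at most 2.33% in a staged oocyte. Beside the mean of the 6 staged *Nlrp5*-/- oocytes, all 77 core genes were higher, by 1.86 to 19.3 times with a median of 9.39 times. Of 85 genes 81 (95.3%) were higher by 0.5 on the log2 scale and none lower, beside 33.3% and 26.6% of all genes. The most increased were *Rpl9*, *Rpl27a* and *Rps20* (log2 differences of 4.27, 4.22 and 4.199) and the least increased core gene was *Rpl5*, with 0.89. Being 1 oocyte, it gives no spread.

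Several paralogs stood near their level in the staged oocytes. *Rpl39l* had 733 normalized counts in the unstaged oocyte and a mean of 674 in the staged *Nlrp5*-/- oocytes (log2 difference 0.12), *Rpl22l1* had 245 and 220 (0.16), and *Rps19bp1* 245 and 215 (0.19). *Rpl10l* had 44.5 and 62.8 (-0.49). *Rpl7l1* (0.97), *Rps27l* (1.25) and *Rpl36al* (1.66) were higher by less than the core median of 3.23. The near-identical copies *Rps27rt* and *Rps23rg1* were 14.4 and 11.5 times higher, close to the core genes. Per kilobase of merged exons the paralog to core ratio was then 0.431 for *Rpl39l*, 0.153 for *Rps27l*, 0.622 for *Rpl36al* and 0.339 for *Rpl22l1*, each below the lowest of the 32 staged oocytes (0.718, 0.429, 0.983 and 0.646). Granulosa markers summed to 1439 CPM in this oocyte (16 of 16 detected, *Foxl2* at 290 and *Amh* at 97.5 normalized counts), against 200 to 652 in all others. The 9 oocyte markers summed to 21730 CPM, the lowest of the 33 oocytes (23651 to 39879 in the others), and 7 of the 9 were below all 6 staged *Nlrp5*-/- oocytes, with a median log2 difference of -0.44. Theca and interstitial markers stood at 745 CPM, above the 4.88 to 320 of the others. The part of follicle cell RNA in the high share was not tested. Core genes with the stricter pyrimidine tract were higher by a median of 9.65 times (n = 20), those with a tract of 4 to 6 further pyrimidines by 7.99 times (n = 7) and those without any tract by 9.10 times (n = 30), small distances beside ranges of 3.56 to 18.6, 3.75 to 17.2 and 1.86 to 19.3.

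**Figure D5:**
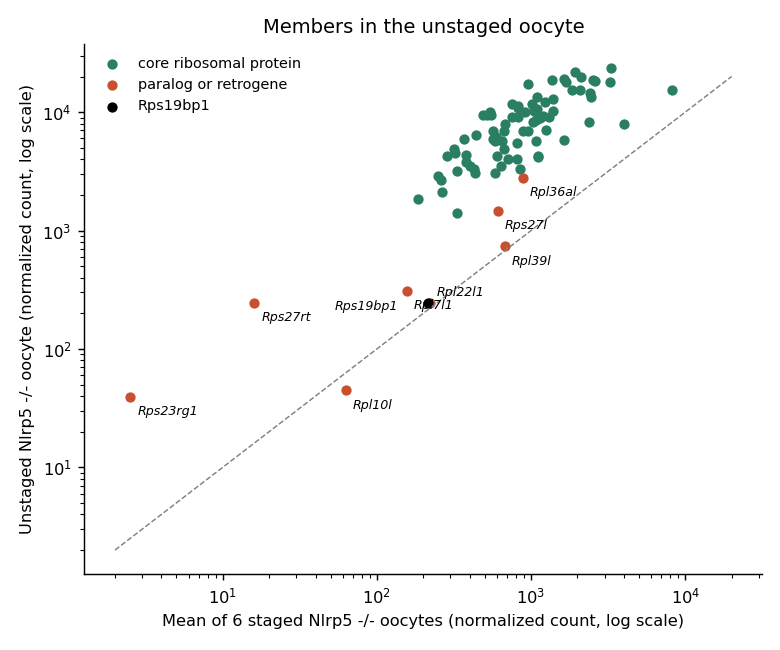
Normalized count in the unstaged *Nlrp5*-/- oocyte against the mean of the 6 staged *Nlrp5*-/- oocytes (both log scales), 1 point per gene, with the dashed line at equality. Core genes lie above the line by a median of 9.39 times, whereas *Rpl39l*, *Rpl22l1*, *Rps19bp1* and *Rpl10l* lie near it. *Rpl3l* had no count and is left out.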

How the data were processed

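Single GV oocytes were sequenced from RNA separated from the DNA of the same cell, with a Smart-seq2-based protocol and Nextera XT libraries. The authors used Trim Galore for trimming and HISAT2 for alignment, left out samples with fewer than 4000000 reads and counted reads per gene in SeqMonk. The table the authors deposited holds raw counts on GRCm38. How strand and multiply mapped reads were handled is not given in the sources used here. Other deposited tables hold the authors' fold changes and p-values and were not used.

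The table had 35373 entries, and 52 that repeated a gene identifier were dropped. Size factors were medians of ratios over 11845 genes with a count in all 33 oocytes. A gene entered a comparison when its normalized counts in those oocytes averaged 10 or more, and 1 was added to each group mean. The labels name no mouse, so no test was run. Genotype came from the labels, which give no stage. Stage was read from a picture of the study's staging heatmap. Exon lengths came from GENCODE vM39 (GRCm39) by gene identifier, with no coordinates taken from it. Named genes were the 5 highest and 5 lowest core genes per kilobase, the 3 largest differences each way in every comparison among genes with a mean of at least 100, each paralog, and *Rps19bp1*, *Rplp0*, *Rpl5*, *Rpl11*, *Rps6*, *Rps19*, *Rpsa*, *Fau* and *Rack1*. Some genes that this rule picks are not reported here. Of the other lists, genes with the largest differences and a mean of at least 100 were named. *Rps23rg1* was set with the paralogs after the table was seen. The members and lists were chosen with earlier results of these data known. Scripts were tested on simulated data. Python 3.11.15, pandas 2.3.3, scipy 1.17.1, matplotlib 3.10.9 and, for TMM factors only, edgeR 4.0.16 were used. Alternatives covered the scaling, floor, pseudocount, average, threshold, oocytes and gene length. The range of depth over oocytes is in the report, and the counting error it leaves on a ribosomal protein share is small.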

Additional observations from a re-analysis of the deposited data

Results flagged for a closer look

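Of 65 groups of 4 to 9 oocytes examined for an oocyte far from the rest, 4 held one, and chance gives about 1 in 20. In 3 of them it was oocyte 14, the NSN *Nlrp5*-/- oocyte: it had 1559 normalized counts of *Rpl9* with the next oocyte at 378, 1765 of *Rpl3* with the next at 537, and 544 of *Rps28* with the next at 137. The fourth was *Rpl36al* in SN *Nlrp5*+/+ oocytes, where oocyte 80 had 2018 and the next 1092. The unstaged oocyte, which entered no comparison of stages, had 8.85% of its counts on ribosomal protein genes, above the 2.33% of the highest other oocyte.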

How the results depend on the processing

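No paired analysis was possible because the replicate numbers link no oocytes of different genotypes and the comparisons carry no test. Stages were set side by side within first indices, as values only. The medians of the 2 subunits moved by less than the spread between oocytes under all alternatives but 1: with genotypes compared regardless of stage, which adds the unstaged oocyte, *Nlrp5*-/- against *Nlrp5*+/+ gave medians of 1.06 and 1.27 with 74 members past the threshold, and *Nlrp5*-/- against *Nlrp5*+/- gave 0.94 and 1.11 with 72. *Nlrp5*+/- against *Nlrp5*+/+ gave 3. The spread includes oocyte 14, which widens it in the comparisons that hold NSN *Nlrp5*-/- oocytes. For *Nlrp5*-/- against *Nlrp5*+/+ in NSN it was 0.67 and 0.68. The medians there went from 0.02 and 0.07 to -0.61 and -0.57 without oocyte 14. A move within this spread therefore does not show that the medians are stable. The counts of members past 0.5 in either direction were less stable. For *Nlrp5*-/- against *Nlrp5*+/+ in NSN the count of 13 became 24 with medians over oocytes, 41 without oocytes 7, 13 and 14 and 53 without oocyte 14. For *Nlrp5*+/- against *Nlrp5*+/+ in NSN the count of 8 became 4 with total-count scaling or medians and 3 with pooled counts or without oocytes 55 and 61. For *Nlrp5*-/- against *Nlrp5*+/- in NSN the count of 11 became 31 with medians, 70 without oocytes 7, 13 and 14, 7 without oocytes 55 and 61 and 76 without oocyte 14. In SN, medians gave 35 in place of 16 for *Nlrp5*-/- against *Nlrp5*+/+ and 8 in place of 3 for *Nlrp5*+/- against *Nlrp5*+/+, and *Nlrp5*-/- against *Nlrp5*+/- gave 9 with pooled counts and 6 without oocytes 7, 13 and 14 in place of 15. Between stages the 8 of *Nlrp5*+/+ became 3 without paralogs, the retrogene and *Rps19bp1*, the 11 of *Nlrp5*+/- became 19 with medians and 7 with pooled counts, and the 34 of *Nlrp5*-/- became 64 with medians, 18 with pooled counts, 56 without oocytes 7, 13 and 14 and 70 without oocyte 14. A threshold of 1 left 0 to 3 members (1, 0, 0, 2, 0, 0, 2, 3 and 1 in the same order). Leaving out each oocyte in turn gave counts of 10 to 53, 2 to 16, 7 to 76, 13 to 36, 2 to 4, 6 to 36, 6 to 14, 7 to 13 and 20 to 70 in that order.

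Named members also reversed. *Rpl13* (NSN, *Nlrp5*-/- against *Nlrp5*+/+) gave -0.0876 with medians, -0.35 without oocytes 7, 13 and 14 and -0.25 without oocyte 14, and *Rps28* gave -0.070 without the 3. Regardless of stage *Rps7* and *Rpl27* gave 0.26 and 0.47, and *Rps7* against *Nlrp5*+/- gave 0.34. Against *Nlrp5*+/- in NSN, *Rpl9* gave -0.56 without the 3 and -0.36 without oocyte 14, and *Rps3* gave -0.10 with medians, -0.20 without the 3 and -0.33 without oocyte 14. Between *Nlrp5*-/- stages *Rps3* gave 0.023 with medians and 0.15 without oocyte 14, and *Rpl3* 0.12 without oocyte 14 alone or with the other 2. Leaving out each oocyte in turn ranged from -0.25 to 0.96 for *Rpl13*, from -0.36 to 0.95 for *Rpl9* and from -0.33 to 0.88 for *Rps3* in these NSN comparisons, and from -1.06 to 0.15 for *Rps3* and -0.94 to 0.12 for *Rpl3* between stages. Leaving out oocyte 14 and the canonical length were chosen after seeing the data. The causes were not tested beyond the oocytes named. Only 2 SN and 4 NSN *Nlrp5*-/- oocytes were compared, and what depth adds to the limits for single genes was not tested.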
